A study of Mus musculus with 11 samples.

Results

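Exosomes form when the membrane of a late endosome buds inwards, and they are released when that endosome fuses with the plasma membrane. The ESCRT machinery (endosomal sorting complexes required for transport) is the best known route for this budding, and small GTPases of the Rab family direct the endosomes afterwards. The present results concern the transcripts of 37 genes of this machinery in HL-1 cells, a line derived from mouse atrial cardiomyocytes that releases exosomes. The genes were chosen by symbol and function, with earlier results of these data known. Of the 37 genes, 35 had a probe on the array, 53 probes in all, among 16593 genes and 25697 probes. Chmp6, which links ESCRT-II to ESCRT-III, and Rab5b, an early endosomal Rab, were not represented in the probe annotation used here.

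Total RNA of HL-1 cells was hybridised to Illumina MouseRef-8 beadchips, 1 culture flask per array. The TGF-β2-treated group (4 arrays) received 10 ng/mL of TGF-β2, the PDGF-BB-treated group (3 arrays) received 100 ng/mL of PDGF-BB, and the control group (4 arrays) received no growth factor. All flasks were kept in serum-free medium for 23 h. The comparisons ask whether the 2 growth factors change the level of the transcripts that make and release exosomes in the producing cells. All flasks hold 1 cell line, so the p-values measure the spread between flasks of that line. The exosome arrays of the study, and a further PDGF-BB cell array implied by its methods, are not analysed here.

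Mean signal per array before normalization was 528 to 846 in the TGF-β2-treated group, 451 to 670 in the PDGF-BB-treated group and 589 to 716 in the control group, and 11401 to 12455 probes were detected per array (detection p-value under 0.05). The arrays lay on 2 chips. Replicates 1 and 2 of the TGF-β2-treated and control groups and replicate 1 of the PDGF-BB-treated group were on chip 1, and all others were on chip 2. The label of a cardiomyocyte line was checked against marker genes. All 7 cardiomyocyte markers with a probe passed the cell filter described next on every array, while 0 of 7 fibroblast, 0 of 5 endothelial and 0 of 3 leukocyte markers with a probe did. Endothelial Pecam1 and Kdr were detected on at most 6 arrays, fibroblast Col3a1 and leukocyte Ptprc on at most 2, and the others on none. RNA came from whole flasks, so fewer cells of a kind and less RNA per cell cannot be told apart.

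The sorting pathway works in steps. ESCRT-0 gathers ubiquitinated cargo on the endosome, ESCRT-I and ESCRT-II deform the membrane, ESCRT-III filaments narrow the neck of the bud, and the ATPase VPS4 takes the filaments apart. Rab5 proteins mark early endosomes, Rab7 marks late endosomes bound for lysosomes, and Rab11, Rab27, Rab31 and Rab35 have been linked to exosome formation or release in other mammalian cells.

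The machinery was widely transcribed in HL-1 cells. With the thresholds used for the cells in the study, a detection p-value under 0.05 and a normalized signal intensity above 30, 26 of the 35 genes passed on all 11 arrays with at least 1 probe (74.3%). The same was true of 41.8% of all 16593 genes on the array, of any function. Counted by probe, 33 of 53 passed on all 11 arrays (62.3%), against 38.7% of all probes, and 5 of 53 were detected on no array, against 40.1% of all probes. No test was made of these differences, since the genes were chosen as known cell machinery.

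Every step of the pathway was represented. In ESCRT-0, Hgs (the cargo-binding subunit HRS) and Stam2 passed on all arrays, while Stam, a second partner of Hgs, passed on at most 8 arrays at any probe. In ESCRT-I, Tsg101, which binds ubiquitinated cargo, and its partners Vps28 and Vps37b passed on all arrays, while the alternative subunits Vps37a and Vps37c passed on 9 and 8. All 3 ESCRT-II genes passed (Snf8, Vps25 and Vps36), as did all 3 genes of the VPS4 group: the ATPases Vps4a and Vps4b and their cofactor Vta1.

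ESCRT-III was mixed. Of its 8 genes with a probe, 5 passed on all arrays: the main filament subunit Chmp4b, the VPS4-recruiting Chmp2a, Chmp1b, Chmp5, which binds Vta1, and Chmp7, which also acts in the repair of the nuclear envelope. Chmp1a passed on 4 arrays and Chmp4c, a form known for its part in cell division, on 2. Chmp2b was detected on 3 arrays and passed on 2, and it was detected on 0 of 4 control arrays, so that its fitted difference from the control group is not given as a fold change.

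Among the Rab genes, 7 of 8 with a probe passed on all 11 arrays (Rab27a, Rab11a, Rab35, Rab5a, Rab5c, Rab7 and Rab31). The exception was Rab27b, the close relative of Rab27a that also acts in exosome release in other cells. One of its 3 probes was detected on 1 array, with a lowest detection p-value of 0.0376, and the other probes on none (lowest 0.173 and 0.607). Of the release genes, Arf6, a GTPase of membrane traffic, and the SNARE proteins Vamp7 and Snap23 passed on all arrays. Sytl4, a Rab27-binding protein, was detected on 0 arrays (lowest detection p-value 0.0852). Smpd3, the neutral sphingomyelinase of the ceramide route, by which exosomes can form without ESCRT, passed on 7 arrays, 3 of 4 in the TGF-β2-treated, 2 of 3 in the PDGF-BB-treated and 2 of 4 in the control group. A transcript that was not detected may still be present below the background of its probe.

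**Figure D1:**
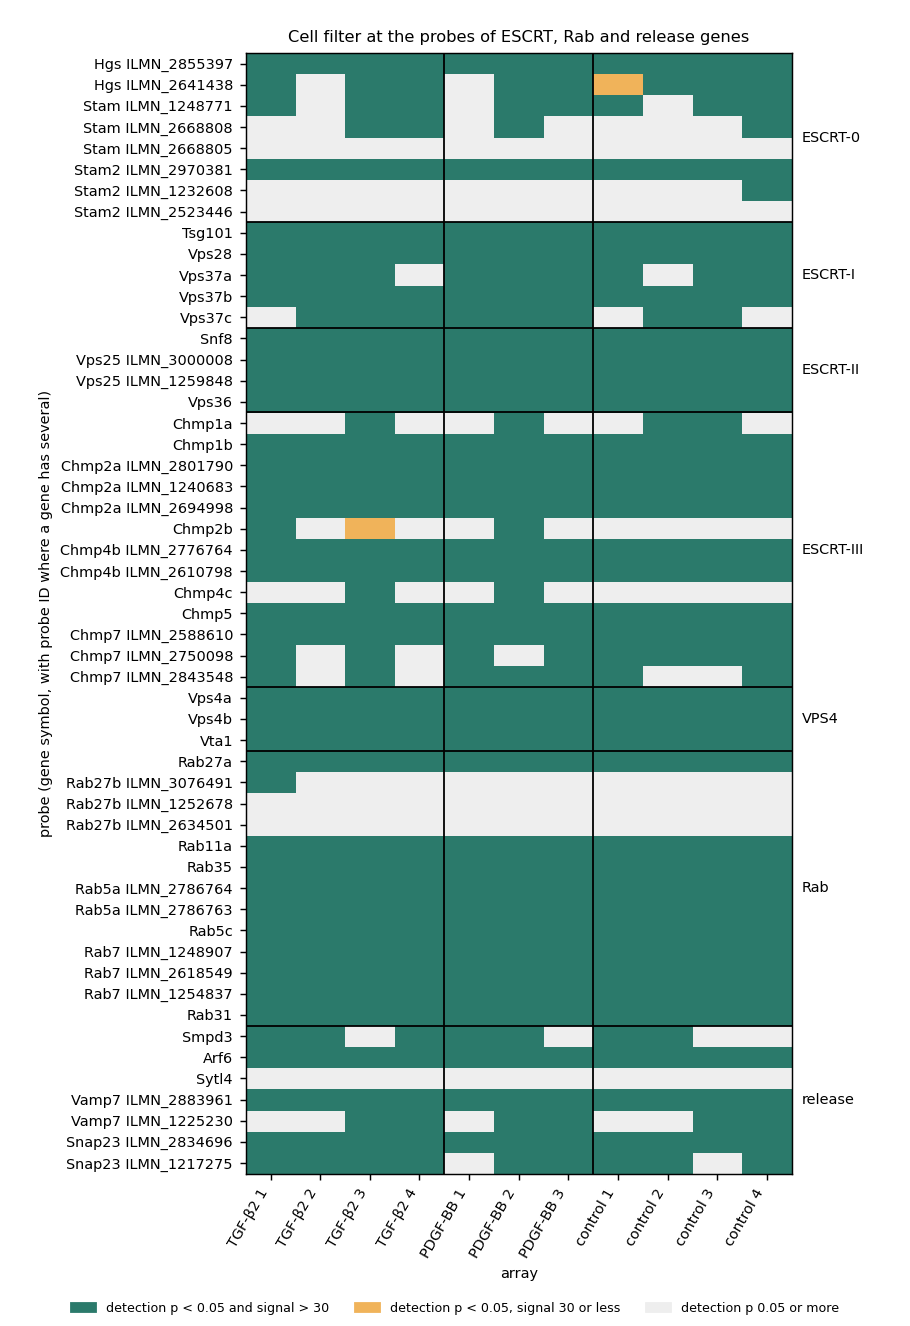
Cell filter at the 53 probes of the ESCRT, Rab and release genes (rows, grouped by role) on the 11 arrays (columns): dark cells passed both thresholds, orange cells had a detection p-value under 0.05 with a signal intensity of 30 or less, and pale cells were not detected. 33 probes are dark on all arrays, and Sytl4 is pale throughout.

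Probes of the same gene did not always give the same picture. The 3 probes of Stam2 passed on 11, 1 and 0 arrays, and the 2 probes of Vamp7 passed on 11 and 6. For Hgs the probes passed on 11 and 8 arrays, for Snap23 on 11 and 9, and for Chmp7 on 11, 8 and 7. Each probe was therefore kept apart in the tests, and the level of one probe was not set against that of another.

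Differences between groups were tested at the 45 probes, of 32 genes, that were detected on at least 3 arrays. Levels are log2 signal after background correction and normalization, so that a difference of 1 is a doubling. None of these transcripts passed an adjusted p-value of 0.05 in limma. The count of called probes was 0 of 45 for TGF-β2-treated against control cells, 0 of 45 for PDGF-BB-treated against control cells and 0 of 45 for TGF-β2-treated against PDGF-BB-treated cells. In each of the 3 comparisons 0% of the 12894 probes tested were called. At an unadjusted p-value under 0.05 there were 0, 0 and 1 of the 45 probes, where 2.02%, 3.2% and 5.13% of all tested probes passed.

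The intervals of the fold changes were narrow at most probes. For TGF-β2-treated against control cells, the 95% confidence interval of the fold change lay within a doubling or halving at 45 of 45 probes, against 96.6% of all tested probes. These counts include Chmp2b, which was detected on 0 of 4 control arrays, so that its interval against control sets no limit on its change. For PDGF-BB-treated against control cells this held for 42 of 45 (92.8% of all), and for TGF-β2-treated against PDGF-BB-treated cells for 43 of 45 (92.2% of all). The exceptions were Vps37c, Vamp7 and Snap23 against control, and Vamp7 and Snap23 between the growth factors, at dim probes. These intervals were not adjusted for the number of probes and are no detection limit, since a call needed an adjusted p-value under 0.05. For TGF-β2-treated against PDGF-BB-treated cells, the interval of Chmp7 ILMN_2843548 (-0.87 to -0.09) did not reach 0. That probe was still not called (adjusted p = 0.847 in limma). The size of change that would be called is not given here. Some dim probes inside the bounds were detected on few arrays, such as Chmp1a and Stam ILMN_2668808 on 4 each. Their intervals, near the background, set no firm limit either.

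**Figure D2:**
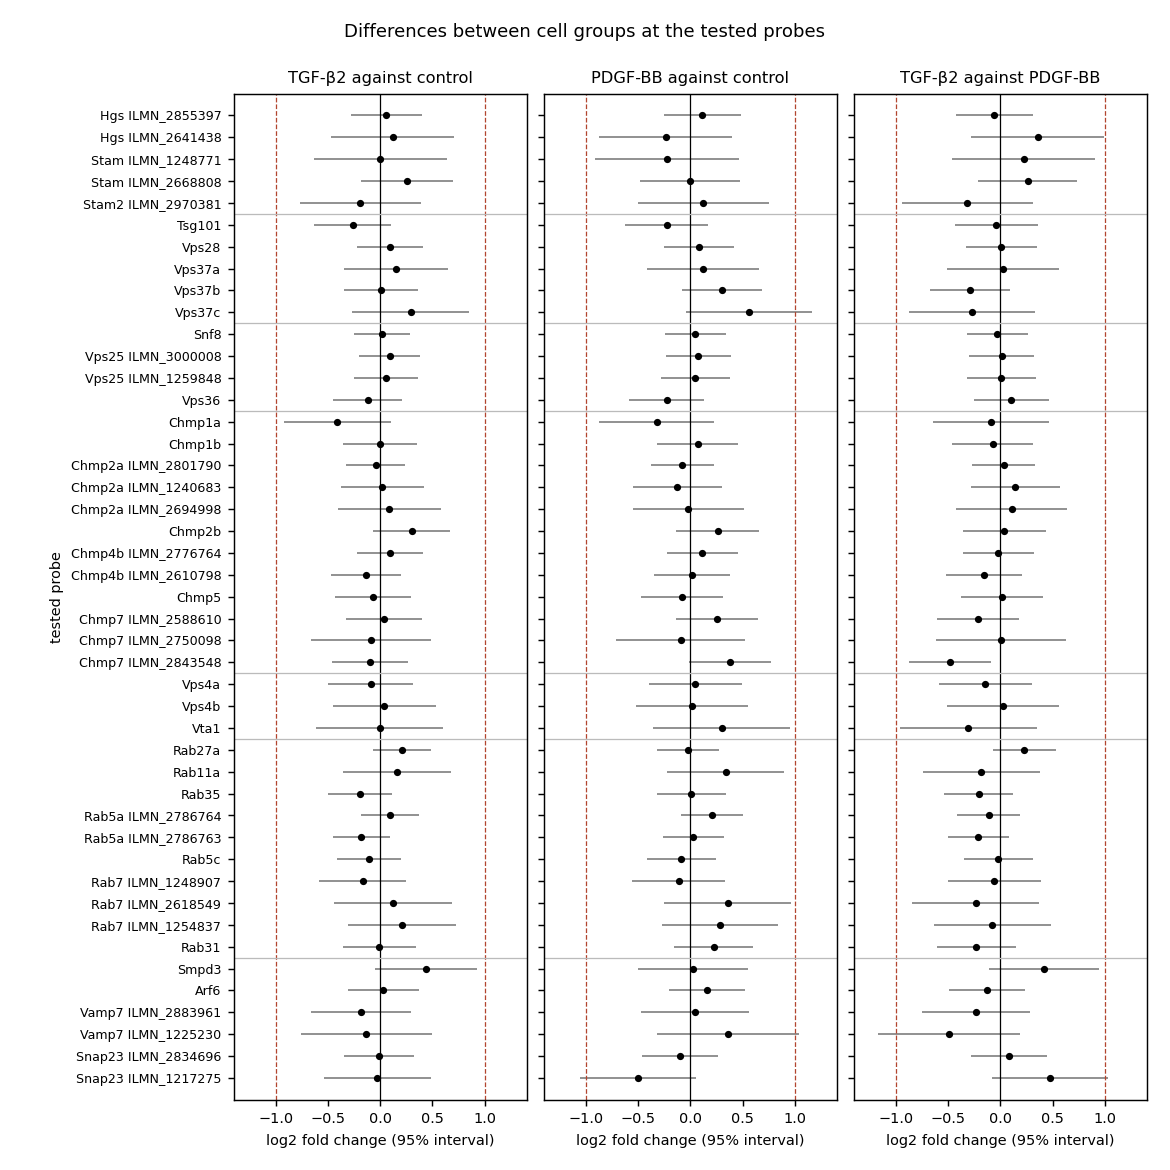
Log2 fold change (points) and its 95% confidence interval (lines) at the 45 tested probes in each comparison of cell groups, with dashed lines at a doubling and a halving. All 45 intervals lie between the dashed lines for TGF-β2 against control, and at 1 probe, Chmp7 ILMN_2843548 for TGF-β2 against PDGF-BB, the interval does not reach 0.

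The medians of the steps lay near those of all probes. Taking 1 probe per gene, the median log2 fold change of the 32 genes was 0.01 for TGF-β2-treated against control cells (17 genes above 0, 15 below), beside -0.0028 over all tested probes. It was 0.06 for PDGF-BB-treated against control cells (22 above, 10 below), beside 0.01 over all, and -0.05 for TGF-β2-treated against PDGF-BB-treated cells (12 above, 20 below), beside -0.02 over all. The medians of the 7 role groups ranged between -0.01 (Rab genes) and 0.09 (ESCRT-I) for TGF-β2-treated against control cells and between 0.01 (Rab genes) and 0.12 (ESCRT-I) for PDGF-BB-treated against control cells. Between the growth factors they ranged between -0.14 (VPS4 group) and 0.01 (ESCRT-II). The 2 comparisons with control share the control arrays and are not independent.

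In ESCRT-0, the level of Stam (ILMN_2668808) was 5.67, 5.32, 5.95 and 6.09 in the TGF-β2-treated group, 5.09, 5.76 and 5.64 in the PDGF-BB-treated group, and 5.42, 5.36, 5.37 and 5.85 in the control group. The groups overlapped, and this probe was detected on 4 arrays only. TGF-β2-treated cells differed from control cells by 0.26 on the log2 scale (95% interval -0.18 to 0.70, limma adjusted p = 1.0). The dim probe of Hgs (ILMN_2641438) had 6.01, 5.41, 6.47 and 5.98 in the TGF-β2-treated group, 4.83, 5.92 and 6.08 in the PDGF-BB-treated group, and 5.65, 5.82, 5.79 and 6.12 in the control group. PDGF-BB replicate 1 was the lowest array. The difference of PDGF-BB-treated from control cells was -0.24 with it (-0.87 to 0.40, adjusted p = 1.0) and 0.16 without it. The bright probe of Hgs (ILMN_2855397) differed by 0.11 in the same comparison.

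Tsg101 (ILMN_2452237) is the ESCRT-I subunit that served as an exosome marker protein in the study. It was lower in TGF-β2-treated than in control cells within each same-numbered pair, but it was not called in limma. Its level was 9.94, 10.24, 10.25 and 9.81 in the TGF-β2-treated group, 9.98, 9.93 and 10.38 in the PDGF-BB-treated group, and 10.31, 10.47, 10.53 and 9.98 in the control group. The ranges of the 3 groups overlapped, with control replicates 1 and 4 inside the range of the treated arrays. The difference between TGF-β2-treated and control cells was -0.26 (95% interval -0.63 to 0.11, adjusted p = 1.0), with pair differences of -0.37, -0.23, -0.28 and -0.17. With the replicate number as a block in the TGF-β2-treated and control arrays alone, the unadjusted p-value in limma was 0.0373 and the adjusted p-value 0.827. That p-value is given here for Tsg101 alone. The share of all tested probes under 0.05 in that fit is not given, so it does not set Tsg101 apart. The difference was -0.23 (-0.63 to 0.17, adjusted p = 1.0) for PDGF-BB-treated against control cells and -0.04 (-0.44 to 0.36, adjusted p = 1.0) between the growth factors.

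Other probes also differed in 1 direction in all 4 pairs. Of the 45 probes, 5 were lower in TGF-β2-treated than in control cells in 4 of 4 pairs (Tsg101, Vps36, Chmp1a, Rab35 and Vamp7 ILMN_2883961) and 3 were higher (Vps37c, Chmp4b ILMN_2776764 and Rab27a). Over all 12894 tested probes the shares were 6.8% lower and 6.47% higher.

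Vps37c (ILMN_2675152), an alternative subunit of ESCRT-I, had the largest difference from control of the 45 probes in either comparison. Its level was 5.65, 6.46, 6.59 and 6.20 in the TGF-β2-treated group, 6.42, 6.16 and 6.91 in the PDGF-BB-treated group, and 5.57, 6.31, 6.34 and 5.51 in the control group. Control replicates 1 and 4 and TGF-β2 replicate 1 were low and were not detected, and all others lay at 6.16 or above. PDGF-BB-treated cells differed from control cells by 0.56 (-0.04 to 1.17, adjusted p = 1.0). The difference was 0.35 without PDGF-BB replicate 3, the highest array. Vps37b (ILMN_2681670), the subunit present on all arrays, had 11.47, 11.12, 10.91 and 11.45 in the TGF-β2-treated group, 11.67, 11.48 and 11.44 in the PDGF-BB-treated group, and 11.14, 11.44, 10.97 and 11.36 in the control group. The TGF-β2-treated and PDGF-BB-treated ranges overlapped slightly, and the difference between them was -0.29 (-0.68 to 0.09, adjusted p = 1.0).

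In ESCRT-II, Vps36 (ILMN_1240149), the ubiquitin-binding subunit, had 11.41, 11.19, 11.56 and 11.32 in the TGF-β2-treated group, 10.93, 11.41 and 11.45 in the PDGF-BB-treated group, and 11.46, 11.37, 11.68 and 11.44 in the control group. PDGF-BB replicate 1 was the lowest array, and the groups overlapped. The difference from control was -0.12 (-0.45 to 0.21) with TGF-β2 and -0.23 (-0.58 to 0.13) with PDGF-BB, both with an adjusted p of 1.0. Snf8 and the 2 probes of Vps25 differed by at most 0.09 in any comparison of groups.

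In ESCRT-III, 1 of the 3 probes of Chmp7 separated the PDGF-BB-treated group from both others. At ILMN_2843548 the level was 5.95, 5.81, 5.91 and 5.46 in the TGF-β2-treated group, 6.20, 6.22 and 6.37 in the PDGF-BB-treated group, and 6.12, 5.70, 5.57 and 6.14 in the control group. All 3 PDGF-BB-treated arrays lay above the other 8, and the probe was detected on 2 of 4 TGF-β2-treated, 3 of 3 PDGF-BB-treated and 2 of 4 control arrays. PDGF-BB-treated cells differed from control cells by 0.38 (-0.01 to 0.77, unadjusted p-value 0.056, adjusted p = 1.0 in limma). TGF-β2-treated cells differed from PDGF-BB-treated cells by -0.48 (-0.87 to -0.09, unadjusted p-value 0.0202, adjusted p = 0.847 in limma). Non-overlap in these directions was found at 1.95% of all tested probes for PDGF-BB-treated above control cells and at 1.71% for TGF-β2-treated below PDGF-BB-treated cells, so that 1 of 45 is near the background in both.

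The other probes of Chmp7 did not show this separation. The bright probe ILMN_2588610 had 10.06, 9.87, 9.55 and 9.97 in the TGF-β2-treated group, 10.14, 9.95 and 10.14 in the PDGF-BB-treated group, and 9.72, 10.10, 9.47 and 10.01 in the control group. Its groups overlapped, and TGF-β2-treated cells differed from PDGF-BB-treated cells by -0.21 (-0.61 to 0.18, adjusted p = 1.0). At ILMN_2750098 the same difference was 0.01 (-0.61 to 0.62, adjusted p = 1.0), with a range of 5.48 to 6.64 in the TGF-β2-treated group, 5.49 to 6.43 in the PDGF-BB-treated group and 5.68 to 6.31 in the control group. Which transcripts of Chmp7 each probe covers was not analysed here.

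None of the remaining ESCRT-III transcripts was called. Chmp1a (ILMN_2847502), named here after its values were seen, had 5.06, 4.96, 5.84 and 4.94 in the TGF-β2-treated group, 5.09, 5.72 and 5.07 in the PDGF-BB-treated group, and 5.31, 5.93, 5.87 and 5.36 in the control group. It was detected on 1 of 4, 1 of 3 and 2 of 4 arrays of these groups, in that order, and the groups overlapped. TGF-β2-treated cells differed from control cells by -0.41 (-0.93 to 0.10, adjusted p = 1.0 in limma), with a lower value in 4 of 4 pairs. Chmp2b (ILMN_2722670) had 6.09, 5.58, 5.64 and 5.40 in the TGF-β2-treated group, 5.44, 5.77 and 5.70 in the PDGF-BB-treated group, and 5.33, 5.12, 5.55 and 5.50 in the control group. It was detected on 2, 1 and 0 arrays of these groups, in that order. TGF-β2 replicate 1 was the highest array, and the groups overlapped. The filament subunit Chmp4b differed from control by between -0.14 and 0.12 at its 2 probes, and Chmp2a by between -0.12 and 0.09 at its 3 probes, all with an adjusted p of 1.0.

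In the VPS4 group, Vps4a (ILMN_2798803) had 9.46, 9.26, 9.54 and 9.80 in the TGF-β2-treated group, 9.36, 9.93 and 9.68 in the PDGF-BB-treated group, and 9.69, 9.44, 9.28 and 10.02 in the control group. All groups covered much the same range, and TGF-β2-treated cells differed from control cells by -0.09 (-0.50 to 0.32, adjusted p = 1.0). Vta1 (ILMN_2679823) had 6.98, 6.94, 7.0 and 6.62 in the TGF-β2-treated group, 6.61, 7.02 and 7.95 in the PDGF-BB-treated group, and 7.34, 6.24, 6.83 and 7.16 in the control group. PDGF-BB replicate 3 alone stood high, and without it the difference from control was -0.08 in place of 0.30 (-0.36 to 0.96, adjusted p = 1.0).

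Rab27a (ILMN_2614966), which docks the endosomes at the plasma membrane before release, was the one transcript of the 45 probes whose TGF-β2-treated and control arrays did not overlap. Its level was 7.65, 7.97, 7.74 and 7.66 in the TGF-β2-treated group, 7.50, 7.65 and 7.42 in the PDGF-BB-treated group, and 7.49, 7.64, 7.45 and 7.59 in the control group. The gap was narrow, with 7.65 on the lowest TGF-β2-treated array and 7.64 on the highest control array. TGF-β2-treated cells differed from control cells by 0.21 (-0.07 to 0.49, unadjusted p-value 0.127, adjusted p = 1.0 in limma). Of all tested probes 0.682% were higher without overlap in this comparison. Against PDGF-BB-treated cells the difference was 0.23 (-0.07 to 0.53, adjusted p = 1.0) with an overlap, and PDGF-BB-treated cells differed from control cells by -0.02 (-0.32 to 0.28, adjusted p = 1.0).

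**Figure D3:**
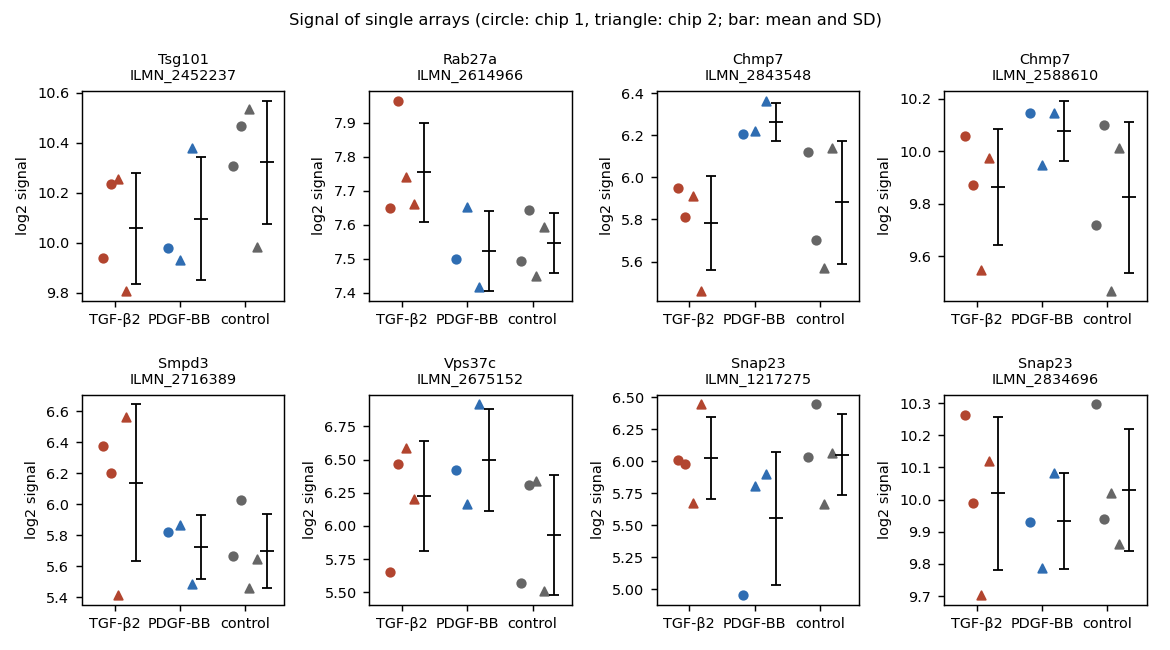
Log2 signal of single arrays (circles, chip 1; triangles, chip 2) with the mean and SD of each group (bars) at 8 probes, with the TGF-β2-treated group left, the PDGF-BB-treated group in the middle and the control group right. The 3 PDGF-BB-treated arrays lie above all others at Chmp7 ILMN_2843548, the TGF-β2-treated arrays lie just above the control arrays at Rab27a, and the groups overlap at the bright probes of Chmp7 and Snap23.

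The other Rab transcripts did not separate the groups. Rab5a, the regulator of early endosome fusion, had 10.04, 10.12, 10.06 and 10.05 at ILMN_2786764 in the TGF-β2-treated group, 10.41, 10.02 and 10.12 in the PDGF-BB-treated group, and 10.06, 10.05, 9.91 and 9.87 in the control group. The groups overlapped, with PDGF-BB replicate 1 the highest array, and PDGF-BB-treated cells differed from control cells by 0.21 (-0.09 to 0.51, adjusted p = 1.0) and by 0.0949 without that array. Its other probe, ILMN_2786763, differed by 0.03. Rab11a, Rab35, Rab5c and Rab31 differed by between -0.20 and 0.16 for TGF-β2-treated against control cells and by between -0.09 and 0.34 for PDGF-BB-treated against control cells, and the 3 probes of Rab7 by between -0.17 and 0.21 and between -0.11 and 0.36, all with an adjusted p of 1.0.

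Among the release genes, Smpd3 (ILMN_2716389) had the lowest unadjusted p-value for TGF-β2-treated against control cells of the 45 probes. Its level was 6.37, 6.20, 5.41 and 6.56 in the TGF-β2-treated group, 5.82, 5.86 and 5.48 in the PDGF-BB-treated group, and 5.66, 6.02, 5.46 and 5.65 in the control group. TGF-β2 replicates 1, 2 and 4 lay above every other array, while TGF-β2 replicate 3 was the lowest of all. The difference from control was 0.44 (-0.05 to 0.93, unadjusted p-value 0.0736, adjusted p = 1.0 in limma). With 1 array left out it ranged from 0.30 to 0.66, the highest without TGF-β2 replicate 3.

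Snap23, the plasma membrane SNARE, had a dim and a bright probe. The dim probe ILMN_1217275 had 6.01, 5.98, 5.67 and 6.44 in the TGF-β2-treated group, 4.95, 5.81 and 5.90 in the PDGF-BB-treated group, and 6.03, 6.45, 5.67 and 6.07 in the control group. PDGF-BB replicate 1 was far below the others and was not detected. PDGF-BB-treated cells differed from control cells by -0.50 (-1.05 to 0.06, adjusted p = 1.0), and by -0.20 without that array. The bright probe ILMN_2834696 differed by -0.10 (-0.46 to 0.27, adjusted p = 1.0), with ranges of 9.70 to 10.26 in the TGF-β2-treated group, 9.79 to 10.08 in the PDGF-BB-treated group and 9.86 to 10.30 in the control group.

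Genes that work beside this machinery gave the same count of 0. Of 60 further ESCRT, Rab, Rab effector, SNARE and tethering genes, 56 had a probe, 45 passed the cell filter on all 11 arrays and 51 were tested. These 51 were tested at 1 probe each. In the 3 comparisons of groups 0 of 51 were called in limma. At an unadjusted p-value under 0.05 there were 0, 1 and 1, beside 2.02%, 3.2% and 5.13% of all tested probes. The count of 1 of 51 did not exceed that share in either comparison with PDGF-BB-treated cells. Both times it was Rab22a (ILMN_2963223), an early endosomal Rab. Its level was 6.71, 7.20, 6.71 and 6.74 in the TGF-β2-treated group, 6.20, 6.27 and 5.95 in the PDGF-BB-treated group, and 6.74, 6.41, 7.23 and 6.54 in the control group. The 3 PDGF-BB-treated arrays were the lowest of the 11. Of all 12894 tested probes, 219 were lower without overlap in PDGF-BB-treated than in control cells. In TGF-β2-treated against PDGF-BB-treated cells, 440 were higher without overlap. Rab22a has 3 probes, of which 1 passed the cell filter on all arrays, and the others are not described here. PDGF-BB-treated cells differed from control cells by -0.59 (-1.03 to -0.15, unadjusted p-value 0.0124, adjusted p = 1.0 in limma), and TGF-β2-treated cells differed from PDGF-BB-treated cells by 0.70 (0.26 to 1.14, unadjusted p-value 0.00441, adjusted p = 0.755 in limma).

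More probes were called between the 2 chips than between the groups. With the group in the model, 355 of the 12894 probes (2.75%) differed between chip 2 and chip 1 at an adjusted p-value under 0.05, 305 higher and 50 lower on chip 2. Of the 45 probes 2 did, both higher on chip 2, where 2.37% of all tested probes were called higher. At an unadjusted p-value under 0.05, 8 of the 45 were higher and 3 lower on chip 2, beside 13.7% and 11.2% of all tested probes. Mean raw signal was 643 to 846 on chip 2 and 451 to 652 on chip 1. The chip goes with the replicate number and hence with the flasks, so chip and flask cannot be told apart. This fit counts the 11 arrays as independent, although same-numbered TGF-β2-treated and control arrays deviated together and share a chip, so its p-values are too small.

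Vps4b (ILMN_2455501), one of the 2 VPS4 ATPases, had 8.79 and 8.75 in TGF-β2-treated, 8.91 and 8.55 in PDGF-BB-treated and 8.60 and 8.70 in control cells on chip 2. On chip 1 it had 8.12 and 8.26 in TGF-β2-treated, 7.90 in PDGF-BB-treated and 8.21 and 8.25 in control cells. All 6 arrays of chip 2 lay above all 5 of chip 1, which was the case in this direction for 2.38% of all tested probes. The difference was 0.58 (0.34 to 0.83, adjusted p = 0.0283 in limma), and within the groups it was 0.58 in TGF-β2-treated, 0.83 in PDGF-BB-treated and 0.42 in control cells. Between the groups, Vps4b differed by at most 0.04.

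The dim probe of Vamp7 (ILMN_1225230), a SNARE of late endosomes and lysosomes, had 6.32 and 6.02 in TGF-β2-treated, 6.19 and 6.84 in PDGF-BB-treated and 5.95 and 6.33 in control cells on chip 2. It was detected on 6 of 6 arrays of chip 2 and on 0 of 5 of chip 1, where its level was 5.15 to 5.68. The fitted difference was 0.73 (0.41 to 1.05, adjusted p = 0.0329 in limma), but it rests on undetected values on chip 1. The mean of chip 2 lay 1.43-fold above the lowest signal that counted as detected on the arrays of chip 1. That ratio carries no interval and is not a lower limit. The bright probe of Vamp7 (ILMN_2883961) differed by 0.46 (0.15 to 0.77, adjusted p = 0.0935) and overlapped, since control replicate 1 on chip 1 was as high as the arrays of chip 2.

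Both calls were unstable. Vps4b had an adjusted p-value of 0.0669 without control replicate 2, 0.0506 without control replicate 4, 0.0542, 0.0682 and 0.0804 without TGF-β2 replicates 1, 2 and 3, and 0.184 and 0.0536 without PDGF-BB replicates 1 and 2, with a difference of 0.50 to 0.62 throughout. For Vamp7 ILMN_1225230 the adjusted p-value was 0.0771 and 0.0604 without control replicates 2 and 4, 0.0594, 0.0699 and 0.0954 without TGF-β2 replicates 1, 2 and 3, and 0.184 and 0.0508 without PDGF-BB replicates 1 and 3. In the TGF-β2-treated and control arrays alone, 4 per chip, they were 0.211 and 0.202.

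**Figure D4:**
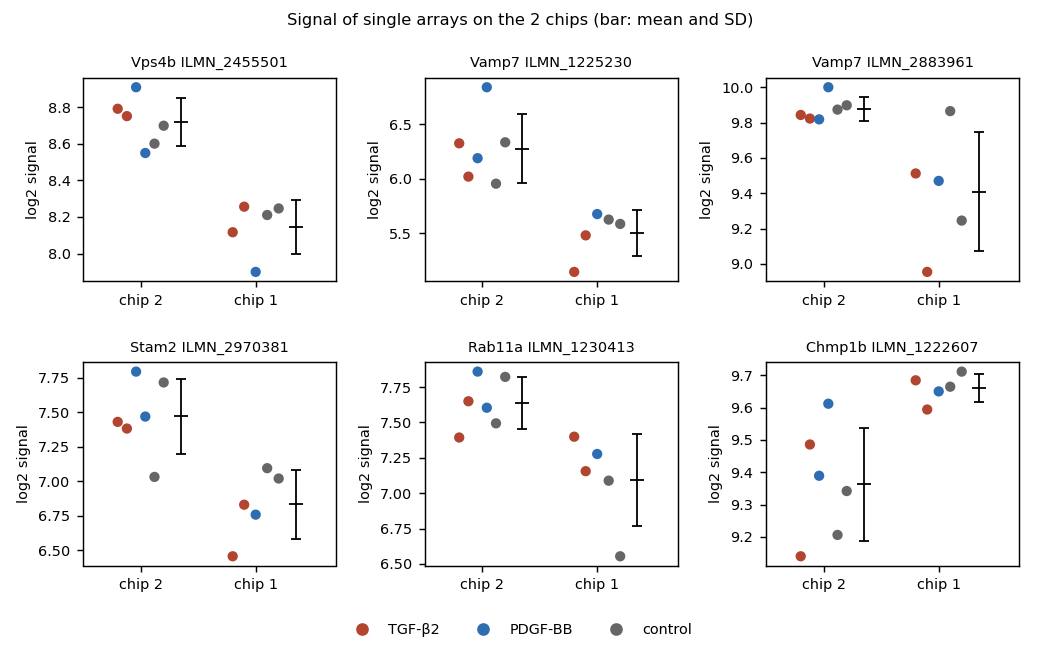
Log2 signal of single arrays (points, coloured by group) on chip 2 (left) and chip 1 (right), with the mean and SD of each chip (bars), at 6 probes. The 6 arrays of chip 2 lie above the 5 of chip 1 at Vps4b and at Vamp7 ILMN_1225230, and the chips overlap at Vamp7 ILMN_2883961, Stam2, Rab11a and Chmp1b.

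Other transcripts with a low unadjusted p-value between the chips ran in both directions. Stam2 (ILMN_2970381) lay between 7.03 and 7.80 on chip 2 and between 6.46 and 7.09 on chip 1, with a difference of 0.62 (0.29 to 0.96, adjusted p = 0.0541). Rab11a (ILMN_1230413), the recycling endosome Rab, differed by 0.52 (0.19 to 0.85, adjusted p = 0.0797), while Chmp1b (ILMN_1222607) differed by -0.31 (-0.55 to -0.08, adjusted p = 0.114) and Rab31 by -0.30 (-0.54 to -0.07, adjusted p = 0.123). Hgs differed by 0.57 at its dim and by -0.27 at its bright probe (adjusted p = 0.0919 and 0.159), and the 3 probes of Rab7 by 0.33, -0.39 and -0.36 (adjusted p of 0.161 to 0.242). The position of the array on its chip gave 0 calls in limma, with 833 of 12894 probes (6.46%) at an unadjusted p-value under 0.05. Among the 45 these were Chmp7 ILMN_2588610 (0.27) and Snap23 ILMN_1217275 (0.41), both higher at positions E to G than at A to C.

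The spread over the 11 arrays was close to that of other transcripts. The SD of a probe over all arrays had a median of 0.25 at the 45 probes, with a range of 0.10 to 0.48, beside 0.26 over all tested probes.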

How the data were processed

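The authors deposited a non-normalized signal intensity, a detection p-value and a bead count for each probe and array, and normalized intensities made with the cubic spline method of Beadstudio according to the paper; the deposited notes name GenomeStudio. Detection p-values entered as deposited, the bead counts only described the arrays (medians of 34 to 38 beads), and the bead standard errors were not used. Depth has no meaning here, and the number of arrays limits the precision.

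Groups came from the sample labels. In limma 3.58.1 (R 4.3.3), background was corrected by neqc with detection p-values and an offset of 16, followed by quantile normalization on the log2 scale. Probes detected (p-value under 0.05) on at least 3 of 11 arrays were fitted together with 1 mean per group (lmFit, eBayes, Benjamini-Hochberg adjustment over 12894 probes). The chip comparisons added chip or array position, read from the array names, to the groups. The cell filter used the authors' normalized intensities. Symbols came from the platform annotation (23978 probes with 1 symbol, 1719 with none), updated through Entrez identifiers. The fits were tested by adding known changes to some probes of these arrays, after the group means had been removed. Tables and figures used Python 3.11.15, pandas 2.3.3 and matplotlib 3.10.9.

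Same-numbered TGF-β2-treated and control arrays deviated together (correlations of 0.191, 0.400, 0.504 and 0.371), and each matched its own number best, so the numbers were taken to pair them. These arrays also share a chip and a position group (A to C or E to G), so pairing by flask and place of the array cannot be told apart. The PDGF-BB numbers do not pair. By chip and position group, PDGF-BB replicates 2 and 3 lay with replicates 3 and 4 of the other groups. The main fit had no block. Its intervals and p-values for TGF-β2-treated against control cells therefore leave out the pairing, which can make them too wide and too large.

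The members and lists were chosen with earlier results of these data known. Per-array values or ranges were given for Tsg101, for probes without overlap and for the lowest p-value in each role group and comparison of groups. Between groups they were also given where probes of a gene differ in sign, with an unadjusted limma p-value under 0.05 for at least 1. Alternatives were other normalization, background correction, offset, filters, blocks, array weights, single chips and leaving out each array; the comparison of the chips within control and TGF-β2-treated arrays was chosen after seeing the data. Sequences were not used.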

Additional observations from a re-analysis of the deposited data

Results flagged for a closer look

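Single arrays that lay far from the rest of their group of 4 were looked for at the 45 tested probes with Dixon's ratio. Of 90 groups tested 10 exceeded the 95% critical value, where chance gives about 4.5. Groups of 3, such as the PDGF-BB-treated one, were not tested.

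In the TGF-β2-treated group, Chmp1a had a log2 level of 5.84 in replicate 3, the one array of the group on which it was detected, and 4.94 to 5.06 in the others. Chmp5 was low in replicate 2 (8.78, the others 9.17 to 9.21), as was Vta1 in replicate 4 (6.62, the others 6.94 to 7.0). Replicate 1 was high for Rab35 (11.25, the others 11.01) and low for Arf6 (9.80, the others 10.10 to 10.13).

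In the control group, replicate 4 was high for Stam ILMN_2668808 (5.85, the others 5.36 to 5.42) and for Stam2 ILMN_2970381 (7.72, the others 7.02 to 7.09). Replicate 3 was high for Rab5c (11.97, the others 11.68 to 11.73) and low for Rab7 ILMN_2618549 (7.01, the others 7.78 to 7.92). Vamp7 ILMN_2883961 was low in replicate 2 (9.25, the others 9.86 to 9.90). The cause of these values was not tested.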

How the results depend on the processing

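The 3 comparisons between groups gave 0 called probes, among all tested and among the 45, under every alternative run and with each array left out. The replicate block gave 0 calls for TGF-β2-treated against control cells with these arrays alone, where same-numbered arrays also share a chip and a position group. It also gave 0 with all arrays, but the PDGF-BB numbers do not pair, so this says nothing about the PDGF-BB comparisons. The count of 26 genes passing the cell filter on all arrays was 26 with each array left out, 23 with a signal above 100, 25 with a detection p-value under 0.01 and 30 with at least 2 arrays of each group. The chip comparison moved. Its 355 calls became 142 with the authors' normalized signals, 166 without background correction, 588 with an offset of 50, 179 with no filter, 42 with array weights and 0 in control and TGF-β2-treated arrays alone, and ranged from 0 to 975 with 1 array left out. It was 975 without control replicate 1, 0 without control replicate 2, TGF-β2 replicate 3 or PDGF-BB replicate 1, 100 without control replicate 4, 159 and 26 without TGF-β2 replicates 1 and 2, and 62 and 113 without PDGF-BB replicates 2 and 3. The 2 calls among the 45 became 0 with array weights or in control and TGF-β2-treated arrays alone, and ranged from 0 to 4 with 1 array left out: 4 without control replicate 1 or 3, 0 without control replicates 2 or 4, TGF-β2 replicates 1, 2 or 3 or PDGF-BB replicate 1, and 1 without PDGF-BB replicates 2 or 3. The causes were not tested.

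Some signs turned. For TGF-β2-treated against control cells on chip 2 alone, Vps4a was 0.0195 and the fitted difference of Chmp2b, which is not read as a fold change, was -0.0066; leaving out 1 array, Vps4a was -0.20 to 0.0432. For PDGF-BB-treated against control cells, Hgs ILMN_2641438 was 0.0409 on chip 2 alone and 0.11 with array weights (-0.47 to 0.16 leaving out 1 array), and Vta1 -0.18 on chip 1 alone (-0.0811 to 0.60). For TGF-β2-treated against PDGF-BB-treated cells, Tsg101 was 0.0606 with the replicate block and 0.11 on chip 1 alone (-0.12 to 0.10), Vps36 -0.0124 with array weights (-0.0615 to 0.20), Vta1 0.36 on chip 1 alone (-0.60 to 0.0751), and Chmp7 ILMN_2750098 -0.0014 without background correction, -0.0155 with chip as a block and -0.37 on chip 1 alone (-0.23 to 0.26); Hgs ILMN_2641438 was -0.0347 to 0.59 leaving out 1 array. Step medians moved on chip 1 alone. For TGF-β2-treated against control cells ESCRT-0 moved to -0.33. For PDGF-BB-treated against control cells ESCRT-0 moved to -0.30, ESCRT-I to 0.35 and the VPS4 group to -0.21. Between the growth factors the VPS4 group moved to 0.29. With the arrays of both chips, the ESCRT-0 median between the growth factors was -0.06 with 1 probe per gene and 0.22 over all its tested probes. The VPS4 median for PDGF-BB-treated against control cells was 0.29 without PDGF-BB replicate 1.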
